A study of Mus musculus with 15 samples.

Results

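The metallothioneins and the genes around them were followed in cells that had to deal with an unfolded protein. The 8 genes were picked by name out of 20207 in the tables, with earlier results of these data known: the metallothioneins *Mt1* and *Mt2*, the zinc-sensing transcription factor *Mtf1*, the zinc exporter *Slc30a1*, the ferritin chains *Fth1* and *Ftl1*, the transferrin receptor *Tfrc* and the iron exporter *Slc40a1*. The cells were NIH3T3, a mouse embryonic fibroblast line, carrying DD-sfGFP, in which an FKBP-derived destabilizing domain (DD) is joined to a superfolder green fluorescent protein. The DD is held folded by the small molecule Shield-1 (S1) and loses its fold when S1 is taken away, which was done by giving the culture purified FKBP protein. Poly(A) RNA was sequenced from 5 control samples, in which S1 was never withdrawn, and from 3 samples at 45 min, 3 at 135 min and 4 at 405 min after withdrawal. All 15 samples were of cells that carried the fusion. Unfolded DD is degraded, so the amount of the fusion protein can differ between groups as well as its folding, and the addition of FKBP protein went with the withdrawal. The cells were a population sorted for high GFP and not 1 clone. The labels do not say that replicates came from separate cultures, so the p-values measure the spread between these samples, which may be technical.

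Metallothioneins are small cysteine-rich proteins that bind zinc and copper. MTF1 senses free zinc and switches on *Mt1*, *Mt2* and *Slc30a1* through metal response elements in their promoters. Iron is handled by another set of genes and mostly after transcription. Transferrin receptor brings iron in, ferritin stores it inside a shell of heavy (*Fth1*) and light (*Ftl1*) chains, and ferroportin (*Slc40a1*) lets it out. Iron regulatory proteins bind a hairpin, the iron responsive element: in a 5′ UTR the bound hairpin blocks translation, and in the *Tfrc* 3′ UTR it protects the mRNA from decay. For *Tfrc* the mRNA level itself can therefore follow iron, while for the ferritins an mRNA level says little about the protein. Iron was not measured in these samples.

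These hairpins set the iron genes apart from the zinc genes in sequence, and they are printed for that reason. A hairpin was searched for as a C, a 5-base arm, the loop CAGTG followed by A, C or T, and a second 5-base arm that pairs with the first at all 5 positions, with G-U pairs allowed, on the transcript strand. Each line below gives 30 bases, 5′ to 3′, with the 6-base loop in capitals.

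Fth1 5′ UTR: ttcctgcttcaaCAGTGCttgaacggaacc

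Ftl1 5′ UTR: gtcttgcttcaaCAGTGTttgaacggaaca

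Slc40a1 5′ UTR: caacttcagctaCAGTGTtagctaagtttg

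Tfrc 3′ UTR, 1: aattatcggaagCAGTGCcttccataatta

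Tfrc 3′ UTR, 2: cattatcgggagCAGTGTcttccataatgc

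Tfrc 3′ UTR, 3: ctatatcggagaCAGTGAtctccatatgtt

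Tfrc 3′ UTR, 4: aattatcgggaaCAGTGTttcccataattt

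In mm9 coordinates the *Fth1* hairpin is at chr19:10057222-10057251 on the plus strand in exon 1 of 4, the *Ftl1* hairpin at chr7:52715148-52715177 on the minus strand in exon 1 of 4, and the *Slc40a1* hairpin at chr1:45982309-45982338 on the minus strand in exon 1 of 8. The 4 *Tfrc* hairpins lie on the plus strand in exon 19 of 19, at chr16:32631305-32631334, chr16:32631684-32631713, chr16:32631749-32631778 and chr16:32631796-32631825. No such hairpin was found in either UTR of *Mt1*, *Mt2*, *Mtf1* or *Slc30a1*. Among all annotated genes, 15 of 19576 5′ UTRs (0.0766%) and 82 of 19815 3′ UTRs (0.414%) held at least 1.

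The zinc genes share short matches in their promoters. The core of the metal response element, TGCACNC or TGCGCNC on either strand, was found 3 times in *Mt1*, 4 times in *Mt2* and 2 times in *Slc30a1*, in the window from 250 bases before to 50 bases after the annotated start. *Tfrc* held 2 overlapping matches, and *Mtf1*, *Fth1*, *Ftl1* and *Slc40a1* held none in this window. At least 1 match was found in 31.2% of 18994 promoters and at least 3 in 2.65%. The antioxidant response core TGACNNNGC was found 1 time each in *Mt2* and *Slc30a1* (13.1% of promoters) and the heat shock core GAANNTTC in none of the 8 (6.7% of promoters). The 250 bases before the start of both metallothionein genes are given here on the plus strand with the metal response cores in capitals, because *Mt1* and *Mt2* lie next to each other on chromosome 8 and both are targets of MTF1.

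Mt1, chr8:96702739-96702988: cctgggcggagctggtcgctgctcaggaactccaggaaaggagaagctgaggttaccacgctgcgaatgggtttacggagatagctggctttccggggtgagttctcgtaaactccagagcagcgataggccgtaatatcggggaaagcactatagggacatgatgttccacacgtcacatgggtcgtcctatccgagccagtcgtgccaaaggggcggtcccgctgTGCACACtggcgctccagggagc

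Mt2, chr8:96696268-96696517: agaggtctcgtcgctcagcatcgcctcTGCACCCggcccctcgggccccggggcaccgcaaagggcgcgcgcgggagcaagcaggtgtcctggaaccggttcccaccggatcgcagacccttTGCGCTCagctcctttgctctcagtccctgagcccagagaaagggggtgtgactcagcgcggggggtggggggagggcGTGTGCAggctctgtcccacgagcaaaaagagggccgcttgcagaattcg

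*Mt1* held 1 core before the annotated start and 2 in the 50 bases after it, and *Mt2* held 3 before and 1 after. These counts depend on where the start is annotated. Other starts and sequence further downstream were not searched, so the counts do not give the full set of elements of either gene.

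The libraries need 1 remark before the values. Total counts ran from 6652539 (control replicate 3) to 30258404 (45 min replicate 1). The samples fell into 2 library sets, found from the data and not from the labels, by how strongly a gene's level followed the GC content of its exons. Set 2 held control replicate 2, 45 min replicate 3 and 405 min replicates 1, 2 and 4, whose slopes, in log2 CPM for each 10 points of GC, ran from -0.375 to 0.017. Set 1 held the other 10 samples, all 3 of the 135 min samples among them, with slopes from -1.293 to -0.637. At 405 min 3 of 4 samples and in the controls 1 of 5 were of set 2, so a gene that differs between the sets can appear to differ at 405 min. Of 10276 tested genes, 5146 (50.1%) were called different between sets by edgeR, a test of counts across all genes, with Benjamini-Hochberg adjusted p-values and a threshold of 0.05. Of the fibroblast markers, 9 of 10 were at 1 RPKM or more in all samples and *Lum* was below 1 in all. Of the 10 markers of epithelial, blood, endothelial and liver cells, 9 were below 1 RPKM in all samples, and *Cd68* reached 1.9 RPKM at most.

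Levels of different genes were compared per length, as the deposited RPKM (reads scaled by gene length and sequencing depth). In the controls the order was *Fth1* with 1952 RPKM ± 561 (SD, n = 5), *Mt1* with 416 ± 50.5, *Ftl1* with 122 ± 189, *Mt2* with 51.8 ± 9.96, *Tfrc* with 23.0 ± 5.6, *Mtf1* with 2.14 ± 0.552, *Slc30a1* with 1.66 ± 0.729 and *Slc40a1* with 0.21 ± 0.148. The ferritin heavy chain and *Mt1* were thus abundant transcripts of these fibroblasts, while the zinc sensor and exporter were low and ferroportin was barely present. The range of *Ftl1*, from 7.63 to 457 RPKM, overlapped those of *Mt1*, *Mt2* and *Tfrc*, and those of *Mtf1* and *Slc30a1* overlapped each other. The order of these neighbours is therefore uncertain. For *Ftl1* the overlap with *Mt1* came from the set 2 control, at 457 RPKM against 400 for *Mt1*. In the set 1 controls *Ftl1* (7.63 to 84.2 RPKM) was below *Mt1* (375 to 499 RPKM). Control replicate 3 had the lowest RPKM of *Tfrc*, *Mtf1*, *Slc30a1*, *Ftl1*, *Slc40a1* and *Mt2* among the controls. Relative to its counts, its RPKM values were 0.6 times those of control replicate 1. Comparisons between samples therefore use CPM, counts scaled to the library total and by TMM factors, which correct for library composition.

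**Figure D1:**
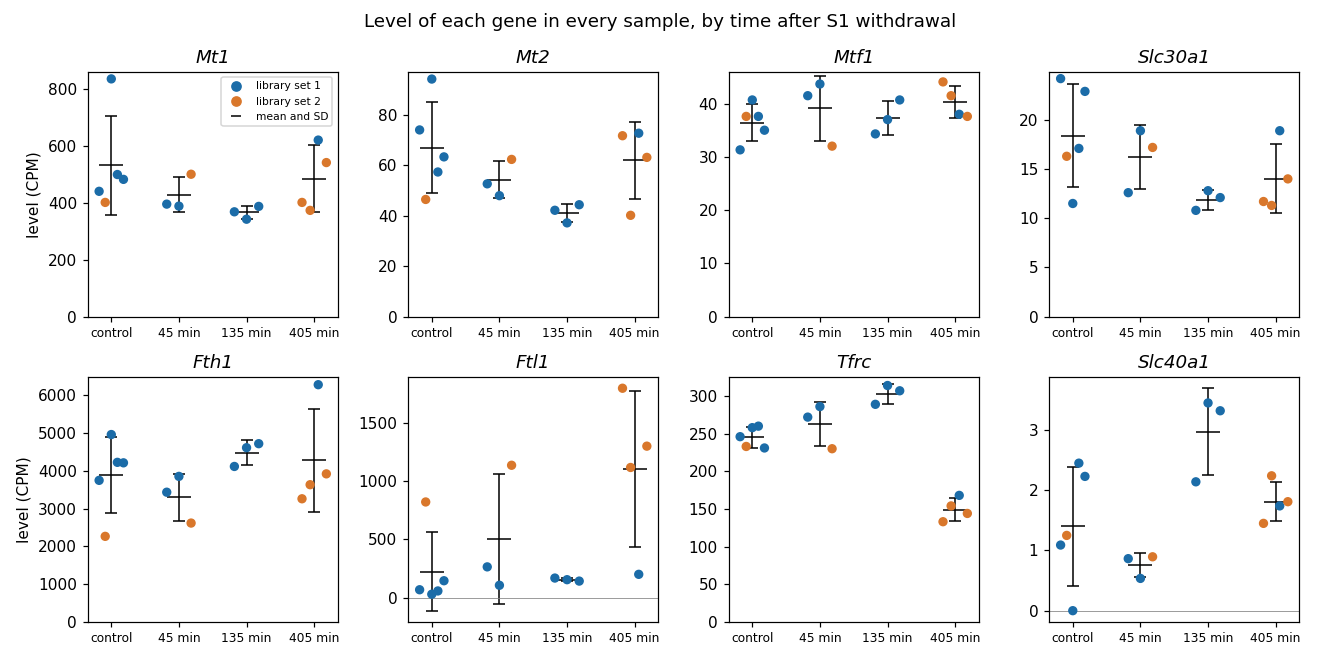
Level of the 8 genes in each of the 15 samples, in TMM-scaled CPM on a linear axis, by group. Points are samples coloured by library set, and bars show the mean and SD. *Tfrc* at 405 min (133 to 168 CPM) lies below all other samples, and the high *Ftl1* samples are those of set 2.

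Of the 7 members that could be tested across all genes, *Tfrc* was the one past the threshold, and its call was lower at 405 min. The comparisons with control share the same 5 controls. Counted over the 7 tested members, 0 passed at 45 min, 0 at 135 min, 1 lower and 0 higher at 405 min, and 1 lower and 0 higher at 405 min against 135 min. Among all tested genes 0.0% were called higher and 0.0% lower at 45 min, 0.564% higher and 0.895% lower at 135 min, 9.99% higher and 13.4% lower at 405 min, and 2.24% higher and 2.82% lower against 135 min. One call lower among 7 members at 405 min is near the share of all genes called lower there. In the test for a change at any time, which 9.69% of the tested genes passed, *Tfrc* had an adjusted p = 0.000646 and the other 6 members did not pass. That call was lost with a GC offset (adjusted p = 0.0788) and within library set 1 (adjusted p = 0.052). For the counts of 0, unadjusted p-values under 0.05 in edgeR numbered 0 of 7 members at 45 min (365 of 10276 genes) and 4 of 7 at 135 min (1226 genes). DESeq2 called no member at either time, beside 6 of 10276 genes at 45 min and 430 at 135 min. With the library set as a covariate the background was 3.06% higher and 4.88% lower at 135 min, 6.17% and 6.87% at 405 min, and 1.66% and 2.01% against 135 min, and the members called were *Fth1* (higher) and *Tfrc* (lower) at 405 min and *Tfrc* (lower) against 135 min. Groups that did not overlap were found for *Mt1* and *Mt2* (lower) and *Tfrc* (higher) at 135 min, for *Tfrc* (lower) at 405 min, and for *Tfrc* (lower) and *Ftl1* (higher) against 135 min. Over all tested genes the groups did not overlap for 0.467% (higher) and 0.448% (lower) at 45 min, 4.79% and 4.75% at 135 min, 6.75% and 6.43% at 405 min, and 19.2% and 17.6% against 135 min. The median log2 fold change of the 7 members was -0.19, -0.53 and -0.11 at the 3 times, beside 0.02, -0.06 and 0.00 for all tested genes.

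At 405 min *Tfrc* mRNA fell to between 133 and 168 CPM, below all of the other 11 samples. *Tfrc* (chr16:32609107-32632876, mm9) stood at 246, 233, 258, 260 and 231 CPM in the 5 controls. At 45 min it was at 272, 286 and 230 CPM and at 135 min at 289, 314 and 307 CPM. At 405 min it was at 133, 154, 168 and 144 CPM. The 135 min samples were all above the controls and the 405 min samples all below them. In RPKM, control replicate 3 stood at 13.2, inside the range of the 405 min samples (11.9 to 17.4), and the other controls were above it. On the log2 scale the difference from control was 0.10 (SE 0.12) at 45 min and 0.30 (SE 0.12) at 135 min, neither past the threshold, with edgeR adjusted p = 0.725 and 0.3. At 405 min it was -0.72 (SE 0.11, adjusted p = 0.000821), a level 0.609 times that of the controls. Against 135 min it was -1.02 (SE 0.12, adjusted p = 0.00112), a level 0.493 times as high. Control levels are not part of that comparison, but the controls shared the fit that gave its SE and p-value. In bulk RNA, less *Tfrc* mRNA in each cell and fewer cells expressing it cannot be told apart.

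Seen against all genes, the fall of *Tfrc* was moderate in size and small in error. At 405 min 1582 of the tested genes (15.4%) had a lower log2 fold change against control than *Tfrc*, and 148 (1.44%) had a lower p-value. Against 135 min only 4 tested genes had a lower p-value. *Tfrc* did not differ between the library sets past the threshold (log2 difference of set 2 from set 1 of -0.19, SE 0.09, adjusted p = 0.0738), but its exons are poor in GC, with 39.1% against a median of 49.1% for the tested genes. The 769 tested genes within 2 percentage points of that GC content had a median log2 fold change of -0.50 at 405 min against control (quartiles -0.84 and -0.13) and -0.28 against 135 min. Of them, 253 (32.9%) were lower than *Tfrc* against control and 50 (6.5%) against 135 min. With a GC offset in the model, which removes each sample's trend with GC, the *Tfrc* differences were -0.22 (SE 0.19, adjusted p = 0.4) and -0.67 (SE 0.21, adjusted p = 0.0627), and neither call was kept. With the library set as a covariate they were -0.61 (SE 0.10, adjusted p = 0.000622) and -0.88 (SE 0.12, adjusted p = 0.00129), both called, and the genes of like GC content then had medians of -0.16 and 0.14. Within set 1, with a single 405 min sample that is assumed to vary like the others, *Tfrc* was at -0.58 (adjusted p = 0.088) against control and -0.87 (adjusted p = 0.0684) against 135 min. Within set 2, with a single control, it was at -0.68 (adjusted p = 0.0712), where the genes of like GC content had a median of 0.03. The direction was thus the same in both sets, and no call was made within either. Leaving out any 1 of the 15 samples kept both calls, with the log2 difference from control between -0.78 and -0.66.

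The genes most like *Tfrc* in their 3 log2 fold changes against control were *Gria1*, *Cdr2* and *Hipk2*. Their root mean square differences from *Tfrc* over the 3 comparisons were 0.045, 0.051 and 0.062 on the log2 scale. At 405 min they stood at -0.69, -0.79 and -0.75. The 3 comparisons share their control samples.

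**Figure D2:**
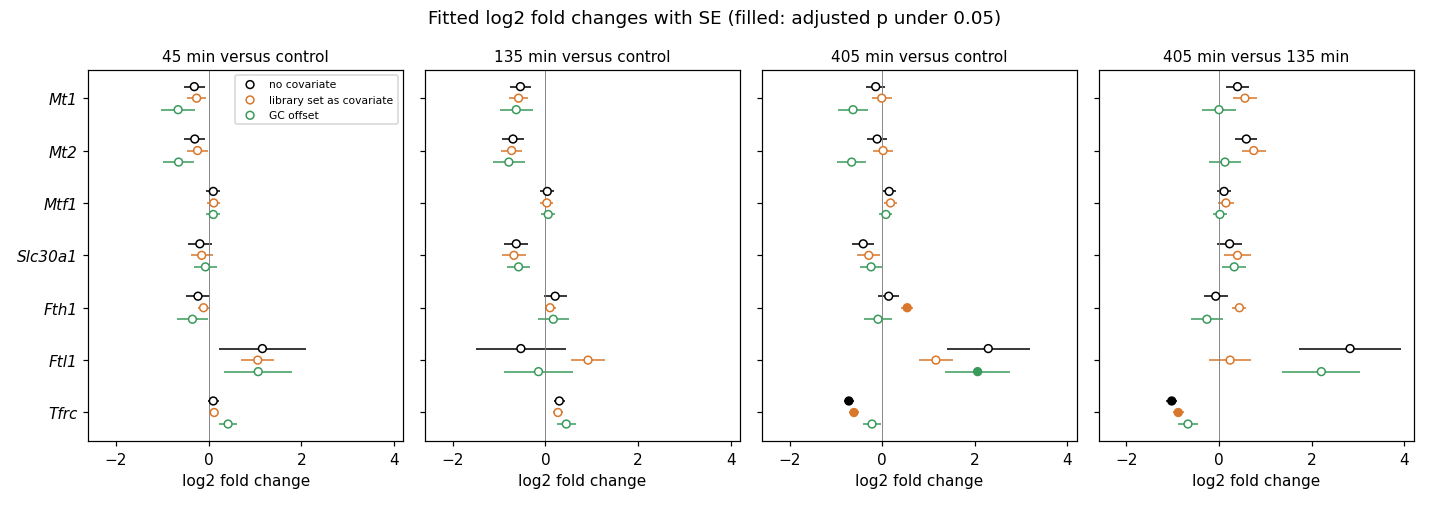
Log2 fold changes (points) with their SE (bars) of the 7 tested members in the 4 comparisons, without a covariate, with the library set as a covariate and with a GC offset. Filled points passed an adjusted p-value of 0.05: *Tfrc* at 405 min without a covariate (-0.72 and -1.02) and with the library set, *Fth1* at 405 min with the library set (0.54) and *Ftl1* at 405 min with the GC offset (2.06).

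**Figure D3:**
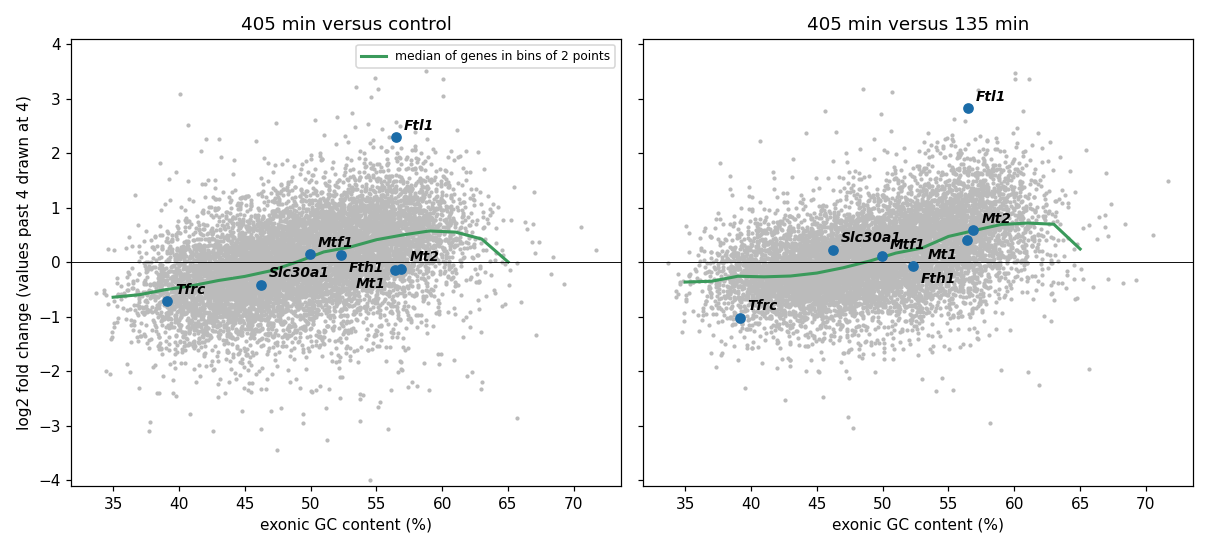
Log2 fold change of the tested genes (grey) against the GC content of their exons in percent, for 405 min against control and against 135 min, with the median of genes in bins of 2 percentage points as a line and the 7 tested members in blue. The median line lies below 0 at low GC and above 0 at high GC, *Tfrc* (-0.72 and -1.02) lay under the line in both panels, and *Ftl1* (2.29 and 2.83) lay far above it.

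In edgeR with all samples and no covariate, neither ferritin chain passed the threshold. *Fth1* (chr19:10057193-10059582), the chain that oxidises iron on entry, was the most abundant member. It stood at 3746, 2263, 4959, 4223 and 4210 CPM in the controls, at 3432, 3851 and 2615 CPM at 45 min, at 4114, 4611 and 4717 CPM at 135 min and at 3258, 3631, 6279 and 3918 CPM at 405 min. The groups overlapped at every time, and the set 2 samples were the lowest of the controls, of the 45 min and of the 405 min samples. The log2 difference from control was -0.23 (SE 0.25) at 45 min, 0.21 (SE 0.25) at 135 min and 0.14 (SE 0.23) at 405 min, with edgeR adjusted p = 0.71, 0.805 and 0.659. The log2 difference of set 2 from set 1 for *Fth1* was -0.74 (SE 0.11, adjusted p = 0.000121). Within set 1 the single 405 min sample, at 6279 CPM, was above the 4 controls (3746 to 4959 CPM), and within set 2 the 3 samples at 405 min (3258 to 3918 CPM) were above the single control (2263 CPM). With the library set as a covariate the 405 min difference was 0.54 (SE 0.13, adjusted p = 0.0107), a level 1.46 times that of the controls, and *Fth1* passed. That call was lost without 405 min replicate 3 or without control replicate 2, with adjusted p up to 0.157 in 15 fits that each left out 1 sample. Within set 1 alone the log2 difference was 0.54 (SE 0.17, adjusted p = 0.141) and within set 2 alone 0.68 (SE 0.25, adjusted p = 0.151), each with 1 arm of a single sample, which is assumed to vary like the others. With the GC offset *Fth1* was at -0.09 (SE 0.30).

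The light chain *Ftl1* (chr7:52713314-52715256) was split by library set. It stood at 68.7, 822, 30.2, 58.4 and 146 CPM in the controls, at 265, 107 and 1137 CPM at 45 min, at 169, 155 and 143 CPM at 135 min and at 1798, 1118, 201 and 1301 CPM at 405 min. The 5 highest values were the 5 samples of set 2, and the 10 samples of set 1 ran from 30.2 to 265 CPM. The log2 difference of set 2 from set 1 was 2.99 (SE 0.33, adjusted p = 1.28e-05), 7.93 times as high, and only 26 tested genes differed more in size. The difference from control was 1.16 (SE 0.94) at 45 min, -0.53 (SE 0.97) at 135 min and 2.29 (SE 0.90) at 405 min, with edgeR adjusted p = 0.698, 0.886 and 0.0729. Against 135 min, where no sample was of set 2, the difference was 2.83 (SE 1.11, adjusted p = 0.129), and all 4 samples at 405 min were higher than the 3 at 135 min. The 405 min difference from control passed with DESeq2 (adjusted p = 0.042) and in edgeR without control replicate 2 (3.86, adjusted p = 0.00137) or without 405 min replicate 3 (2.64, adjusted p = 0.0355). DESeq2 called 3410 of the 10276 tested genes in that comparison, both directions together, and edgeR with all samples 2409. With the library set as a covariate the values against control were 1.06 (SE 0.36), 0.92 (SE 0.37) and 1.16 (SE 0.37), with adjusted p = 0.488, 0.127 and 0.0519, and the value against 135 min was 0.24 (SE 0.45, adjusted p = 0.843). The direction at 135 min thus turned from lower to higher once the library set entered the model. The coding sequence of *Ftl1* has 6 copies elsewhere in the mm9 genome with at least 90% identity over at least 80% of its length, the closest with 99.6%, so its reads could have been shared out between copies and its values are uncertain. *Fth1* has 1 such copy (91.0%) and *Mt2* 1 (90.9%).

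The balance of the chains shows the same split. The ratio of *Fth1* to *Ftl1* in RPKM was between 2.03 and 3.64 in the 5 samples of set 2 and between 14.5 and 184 in the 10 samples of set 1. Within set 2 the control was at 3.08 and the 405 min samples were at 2.03, 3.64 and 3.37.

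Neither metallothionein passed the threshold at any time in edgeR with all samples and no covariate. The group means of both were lowest at 135 min. *Mt1* (chr8:96702989-96704225) stood at 440, 401, 835, 499 and 482 CPM in the controls and at 395, 388 and 500 CPM at 45 min. At 135 min it was at 368, 342 and 387 CPM, all below the controls, and at 405 min at 401, 373, 620 and 541 CPM. *Mt2* (chr8:96696518-96697467) stood at 74.1, 46.5, 94.3, 57.4 and 63.4 CPM in the controls and at 52.7, 48.0 and 62.4 CPM at 45 min. At 135 min it was at 42.2, 37.2 and 44.4 CPM, again below every control, and at 405 min at 71.8, 40.2, 72.8 and 63.2 CPM. At 135 min the log2 difference from control was -0.54 (SE 0.23, adjusted p = 0.368) for *Mt1* and -0.70 (SE 0.24, adjusted p = 0.204) for *Mt2* in edgeR. At 45 min the differences were -0.31 (SE 0.23) and -0.30 (SE 0.23), and at 405 min -0.14 (SE 0.21) and -0.11 (SE 0.21), with adjusted p from 0.639 to 0.698. The lowest control level of both genes was in the set 2 library, control replicate 2, and the difference between sets passed the threshold for neither gene (adjusted p = 0.328 and 0.356). With the library set as a covariate the 135 min values were -0.58 (*Mt1*) and -0.73 (*Mt2*, SE 0.22, adjusted p = 0.0506), and within set 1 alone *Mt2* was at -0.80 (SE 0.18, adjusted p = 0.0319), where 3.57% of the tested genes were called lower. The ratio of *Mt1* to *Mt2* in RPKM lay between 5.75 and 9.56 in all 15 samples. Their coding sequences are 79.6% identical.

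*Mtf1* (chr4:124479793-124527044), the transcription factor that drives the metallothioneins, stayed in a narrow range. It ran from 31.4 to 40.8 CPM in the controls, from 32.1 to 43.8 CPM at 45 min, from 34.4 to 40.8 CPM at 135 min and from 37.7 to 44.2 CPM at 405 min. Its log2 differences from control were 0.10 (SE 0.15), 0.04 (SE 0.15) and 0.15 (SE 0.14), with edgeR adjusted p = 0.765, 0.955 and 0.432. The mRNA level does not report on the activity of MTF1, which is set by zinc binding.

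*Slc30a1* (chr1:193730660-193737126), which encodes the zinc exporter ZnT1 and is another MTF1 target, stood at 24.2, 16.3, 11.5, 17.1 and 22.9 CPM in the controls. It was at 12.6, 18.9 and 17.2 CPM at 45 min, at 10.8, 12.8 and 12.1 CPM at 135 min and at 11.7, 11.3, 18.9 and 14.0 CPM at 405 min. At 135 min the groups overlapped only through control replicate 3, the shallowest library, in which *Slc30a1* had 66 counts. The log2 difference was -0.19 (SE 0.26) at 45 min, -0.63 (SE 0.26) at 135 min and -0.41 (SE 0.24) at 405 min, with edgeR adjusted p = 0.747, 0.345 and 0.205. At 135 min *Mt1*, *Mt2* and *Slc30a1*, named above as MTF1 targets, thus had values below 0, none past the threshold without a covariate. Another 15 edgeR fits had the library set as a covariate and each left out 1 sample. In these *Mt2* passed at 135 min in 4 (adjusted p from 0.0268 to 0.171) and *Mt1* in 0. *Slc30a1* passed in 1, without control replicate 3 (adjusted p = 0.0132, and up to 0.285 in the others).

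*Slc40a1* (chr1:45964915-45982439), the only known cellular iron exporter, was the lowest member and missed the count filter, because control replicate 3 had no count. A count of 0 in that library allows up to 3 counts, or 0.522 CPM, as far as counting error goes. The other controls were at 1.09, 1.25, 2.45 and 2.23 CPM. It was at 0.864, 0.536 and 0.895 CPM at 45 min, at 2.14, 3.45 and 3.32 CPM at 135 min and at 1.45, 2.24, 1.74 and 1.81 CPM at 405 min. Outside control replicate 3 these were between 5 and 91 counts a sample. The difference of mean log2 CPM from control was -0.25 at 45 min, 1.55 at 135 min and 0.89 at 405 min, with two-sided exact permutation p = 0.75, 0.107 and 0.413, or 0.75, 0.228 and 0.551 after Benjamini-Hochberg adjustment over 4 comparisons. On the log2 scale the zero in control replicate 3 takes a floor value. The control SD was 1.82, against 0.24 to 0.37 in the other groups, so these differences lean on that library. In plain CPM the means were 1.40 in the controls and 0.765, 2.97 and 1.81 at the 3 times. Against 135 min the difference of the 405 min samples was -0.66 (two-sided exact permutation p = 0.114, adjusted 0.228, where 0.0571 is the smallest p these group sizes allow). In an edgeR fit with no filter on low counts the log2 differences from control were -0.92 (SE 0.69), 1.04 (SE 0.64) and 0.31 (SE 0.60), with adjusted p = 0.683, 0.563 and 0.801.

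Among 5 lists of related metal genes outside the 8, the heme list had the most genes called higher. The lists were written with earlier results of these data known, so their order and counts are a description and not a test. It held 13 tested genes, of which 1 was called higher at 135 min and 5 higher and 1 lower at 405 min, with a median log2 fold change of 0.35 at 405 min. Among all tested genes 0.564% were called higher at 135 min, and 9.99% higher and 13.4% lower at 405 min. The gene at 135 min was *Hmox1*, heme oxygenase, which opens heme and frees its iron. *Hmox1* stood at 56.1, 94.4, 37.5, 43.1 and 53.3 CPM in the controls and at 90.5, 85.6 and 120 CPM at 45 min. It was at 478, 442 and 533 CPM at 135 min and at 287, 220, 110 and 172 CPM at 405 min, above every control at both times. Its log2 difference from control was 3.09 (SE 0.30, adjusted p = 5.4e-05) at 135 min, 8.5 times the control level, and -1.30 (SE 0.31, adjusted p = 0.0295) at 405 min against 135 min. *Blvrb*, which encodes biliverdin reductase B, rose most at 405 min, from 39.1 CPM ± 15.4 (SD, n = 5) to 171 ± 19.7 (SD, n = 4), with a log2 difference of 2.13 (SE 0.23, adjusted p = 7.59e-05). *Blvra*, the main reductase for the biliverdin that heme oxygenase makes, was at 0.002 (adjusted p = 0.995) and is named here although it fell outside the rule for named genes. *Abcg2*, an exporter of porphyrins, fell by 0.81 on the log2 scale (SE 0.15, adjusted p = 0.00293). With the library set as a covariate the heme list had 3 higher at 135 min (beside 3.06% of all tested genes) and 4 higher and 1 lower at 405 min (beside 6.17% and 6.87%).

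The other lists had fewer genes called higher, and their counts at 405 min are to be read against the 9.99% of all tested genes called higher and 13.4% called lower. Counts at 405 min with the library set in the model are to be read against 6.17% higher and 6.87% lower. Of 16 tested zinc genes 0 were called at 135 min and 2 (12.5%) were called lower at 405 min, with the larger fall in *Slc30a7*, which carries zinc into the Golgi (-0.67, SE 0.20, adjusted p = 0.0275), and with the library set in the model 0 were called at 405 min and 2 (12.5%, beside 3.06% of all tested genes) were called higher at 135 min, *Slc39a10* and *Slc39a14*. The zinc importer *Slc39a10* was lower at 405 min than at 135 min (-0.83, SE 0.19, adjusted p = 0.0227), a call lost with the library set. In that model *Slc39a14* was the 1 zinc gene called lower there (-0.82, SE 0.20, adjusted p = 0.0298), beside 2.01% of all tested genes. Of 11 copper genes 3 (27.3%) were lower at 405 min, with the largest fall in *Cox17*, a copper chaperone for cytochrome c oxidase (-1.62, SE 0.37, adjusted p = 0.00869), and with the library set 1 was higher and 2 lower. Of 14 iron genes 3 (21.4%) were higher and 2 (14.3%) lower at 405 min, from the divalent metal transporter *Slc11a2* (1.28, SE 0.36, adjusted p = 0.0232) to the ferrireductase *Steap2* (-1.08, SE 0.21, adjusted p = 0.00397), and with the library set *Slc25a37* was called higher, *Steap2* stayed lower and *Slc11a2* was not called. Of 15 iron-sulfur cluster genes 2 (13.3%) were higher and 4 (26.7%) lower at 405 min, from *Ciao1* (0.77, SE 0.24, adjusted p = 0.0366) to *Bola3* (-1.54, SE 0.40, adjusted p = 0.0159), and with the library set 0 were higher and 2 lower. *Slc39a14* and *Slc25a37* are named after their values were seen. The medians of the zinc, copper, iron and iron-sulfur lists at 405 min were -0.04, -0.12, -0.04 and -0.20, beside 0.00 for all tested genes.

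**Figure D4:**
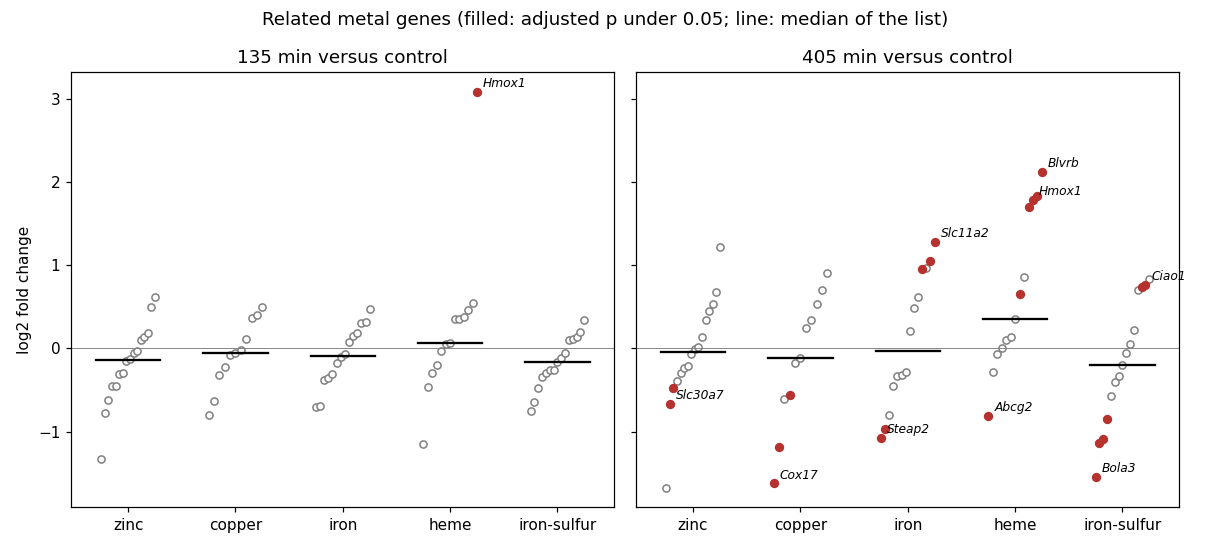
Log2 fold changes of the tested genes in the 5 related lists at 135 min and 405 min against control. Each point is a gene, filled where the adjusted p-value was under 0.05, and the line is the median of the list. At 135 min *Hmox1* (3.09) is the single filled point, and at 405 min 5 heme genes are filled above 0.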

How the data were processed

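Poly(A) RNA from 15 samples (5 control, 3 at 45 min, 3 at 135 min, 4 at 405 min) was sequenced by the authors, with the Encore Complete kit per the labels; the methods also describe a random-hexamer protocol, and which library was made with which is not given. Reads were aligned to mm9 and assigned to RefSeq genes on the DNAnexus platform by the authors (aligner and version not given in the sources used here). The deposited read counts are expected counts: between 8.71% and 15.6% of a sample's genes were not whole numbers. The deposited RPKM values, made by the authors by scaling to gene length and depth, were used to compare genes, to form ratios within a sample, for the markers and beside single CPM values. The deposited standard score and scaled RPKM columns were not used.

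Groups came from the labels. Expected counts were rounded, although the design had assumed whole counts, and a gene was tested if each of the samples had at least 1 count (10276 of 20207 genes). One edgeR 4.0.16 quasi-likelihood model (R 4.3.3, TMM factors, all 15 samples) gave the log2 fold changes, with the SE of a log2 fold change derived from its F statistic, and Benjamini-Hochberg adjusted p-values over all tested genes at a threshold of 0.05. *Slc40a1* was compared by an exact permutation test of mean log2 CPM. The procedure was tested on simulated counts. These held no library set effect and no trend with GC content, so that test does not cover either. Library sets were split at the widest gap between the samples' GC slopes. Exonic GC content (95.9% of tested genes), UTRs and promoters came from NCBIM37, the same assembly as mm9. GC content was taken over the merged exons of all GENCODE vM1 transcripts of a gene, and UTRs from its longest protein-coding transcript. Promoter starts were those of the deposited gene coordinates, with the strand from GENCODE vM1. The windows of *Fth1*, *Tfrc* and *Slc40a1* had no identical sequence in a set of RefSeq promoters. Members and lists were chosen with earlier results of these data known. Named beside the 8 members are the 3 genes most like a called member and the called gene with the largest rise and fall in each list. *Hmox1* at 135 min was such a gene. The labels do not say whether replicate numbers pair the samples, and the main model did not pair them. Alternatives were RLE and upper-quartile factors, DESeq2 1.42.0, other filters, fewer groups, a replicate block, the library set, a GC offset and leaving out each sample. At totals of 6652539 to 30258404 counts the sampling error of the low genes limits precision.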

Additional observations from a re-analysis of the deposited data

Results flagged for a closer look

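*Mt1* in control replicate 3 stood at 835 CPM, apart from the other 4 controls, which ran from 401 to 499 CPM. Its gap to the nearest control was 0.776 of the range of the group. This was the shallowest library. In RPKM its *Mt1* value of 380 was inside the range of the other controls, but all RPKM values of this library were low for their counts (0.6 times those of control replicate 1). *Ftl1* in control replicate 2 stood at 822 CPM against 30.2 to 146 CPM in the other controls, with a gap of 0.853 of the range, and it was the 1 control of library set 2. Of 16 groups of 4 or 5 samples examined in this way 2 stood out, where chance gives about 1 in 20.

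*Tfrc* was lower at 405 min than at 135 min after S1 withdrawal. The log2 fold change was -1.02 (SE 0.12, edgeR adjusted p = 0.00112), with all 4 samples at 405 min below all 3 at 135 min. With the GC offset it was -0.67 (edgeR adjusted p = 0.0627), and the call was not kept. The 135 min samples were all of library set 1, and within that set the difference was -0.87 (adjusted p = 0.0684).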

How the results depend on the processing

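The number of members called changed as follows. At 135 min, lower went from 0 to 1 within library set 1 and to 1 with the library set and no filter, a setting chosen after seeing the data (*Mt2* in both). At 405 min, higher went from 0 to 1 with DESeq2 (*Ftl1*, adjusted p = 0.042), to 1 with the GC offset (*Ftl1*, adjusted p = 0.0416), to 1 with the library set (*Fth1*), to 2 with the library set and no filter (both), and ran from 0 to 1 when a sample was left out (*Ftl1* without control replicate 2 at 3.86, adjusted p = 0.00137, and without 405 min replicate 3 at 2.64, adjusted p = 0.0355). At 405 min, lower went from 1 to 0 within library set 1, to 0 within set 2, to 0 with the GC offset and to 0 with the replicate block and the GC offset (*Tfrc* at -0.24, adjusted p = 0.446). Against 135 min, higher went from 0 to 1 with only the compared groups (*Ftl1*, 2.82, adjusted p = 0.0147) and ran from 0 to 1 when a sample was left out (*Ftl1* without control replicate 2, adjusted p = 0.0328), and lower went from 1 to 0 within library set 1, with the GC offset, and with the replicate block and the GC offset (*Tfrc*, adjusted p = 0.16). In the test for a change at any time, whose alternatives were chosen after seeing the data, the count went from 1 to 0 with the GC offset, with the replicate block and the GC offset and within set 1 (*Tfrc* lost), to 2 with the library set (*Fth1*, adjusted p = 0.0152), to 3 with the library set and no filter (*Ftl1*, *Fth1* and *Tfrc*), and ran from 1 to 3 when a sample was left out, with 3 without control replicate 2 (*Ftl1*, adjusted p = 0.0054, *Mt2*, adjusted p = 0.0455, and *Tfrc*). *Tfrc* was below 0 in both comparisons at 405 min under all alternatives run. The DESeq2 call of *Ftl1* at 405 min stands beside 3410 of 10276 tested genes called there in either direction.

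Log2 fold changes that changed sign, none of them past the threshold on either side, were these. At 45 min within set 2: *Mt1* 0.324, *Mt2* 0.432, *Mtf1* -0.221, *Slc30a1* 0.085, *Fth1* 0.216 and *Tfrc* -0.01. *Slc30a1* at 45 min was at 0.002 with the replicate block and the GC offset. *Ftl1* at 135 min was at 0.922 with the library set, 1.027 within set 1, 0.161 with the replicate block and the GC offset and 0.926 with the library set and no filter. At 405 min *Mt1* was at 0.128 within set 1 and 0.141 within set 2, and *Mt2* at 0.018 with the library set, 0.005 within set 1, 0.341 within set 2 and 0.014 with the library set and no filter. *Fth1* at 405 min was at -0.091 with the GC offset and -0.077 with the replicate block and the GC offset. Against 135 min *Mt1* was at -0.001 with the GC offset and -0.129 with the replicate block added, and *Fth1* at 0.443 with the library set, 0.475 within set 1 and 0.424 with the library set and no filter. Leaving out 1 sample gave *Ftl1* -0.28 to 2.72 at 45 min and -0.816 to 1.029 at 135 min, *Mtf1* -0.029 to 0.094 at 135 min, and at 405 min *Mt1* -0.277 to 0.086, *Mt2* -0.219 to 0.048 and *Fth1* -0.107 to 0.248, with *Fth1* -0.315 to 0.041 against 135 min. The cause of these changes was not tested.

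The replicate block changed no member's call (*Tfrc* -0.74, adjusted p = 0.0144, and -1.02, adjusted p = 0.0408). Deviations of samples with the same replicate number correlated with a mean r of -0.11 over 19 pairs, and those with different numbers with 0.028 over 64 pairs. The mean r was 0.157 within a library set and -0.168 across sets. Samples with the same number can be of different sets, so this check cannot tell whether the numbers pair the samples. *Slc40a1*, at 0 to 91 counts, is limited by depth, and *Ftl1* by its copies and the library sets.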
